A study of Mus musculus with 72 samples.

Results

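Ketone body metabolism in the liver was followed through 3 genes, Bdh1, Acat1 and Slc16a1, chosen by name from the 55573 genes of the count table by their Ensembl identifiers (ENSMUSG00000046598, ENSMUSG00000032047 and ENSMUSG00000032902) by a rule that uses no measured value. Livers came from male C57BL/6 mice fed autoclaved chow ad libitum under a 12-hour light and 12-hour dark cycle, with zeitgeber time (ZT) counted in hours from lights on. All mice carried loxP-flanked Bmal1 (Bmal1 fl/fl). WT mice had no further allele, and LKO mice also carried Albumin-cre, so that Cre recombinase, driven by the Albumin promoter, removes Bmal1 in hepatocytes while other cells of the liver can keep it. Mice of either genotype were housed with their microbes under specific pathogen-free (SPF) conditions or germ free (GF), without microbes. Each of the 4 groups, named SPF WT, GF WT, SPF LKO and GF LKO, held 18 libraries, 3 mice at each of ZT2, ZT6, ZT10, ZT14, ZT18 and ZT22. The comparisons asked how loss of the hepatocyte clock and absence of gut microbes, alone or combined, went with the level and the 24-hour rhythm of these genes.

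Ketone bodies are made in liver mitochondria when fatty acids are oxidized faster than the citric acid cycle takes up their acetyl-CoA. Acetoacetyl-CoA formed from acetyl-CoA gives rise to acetoacetate, which is then reduced to β-hydroxybutyrate, and both leave the hepatocyte to serve as fuel in muscle, heart and brain. Acat1 encodes the mitochondrial acetoacetyl-CoA thiolase at the entry of the pathway. Bdh1 encodes the mitochondrial D-β-hydroxybutyrate dehydrogenase that interconverts acetoacetate and β-hydroxybutyrate. Slc16a1 encodes monocarboxylate transporter 1, a proton-coupled carrier of lactate, pyruvate and ketone bodies across the plasma membrane. BMAL1, with its partner CLOCK or NPAS2, binds E-box sequences and drives a rhythm of transcription.

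The 3 genes lie on different chromosomes of GRCm38 (mm10). Bdh1 spans 31422280 to 31458901 on the plus strand of chromosome 16, with 7 annotated transcripts, 4 of them coding. Acat1 spans 53580522 to 53610382 on the minus strand of chromosome 9, with 3 transcripts and up to 12 exons. Slc16a1 spans 104638668 to 104658462 on the plus strand of chromosome 3, with 1 transcript of 5 exons. Reads were counted without use of the strand, and an exon of Bdh1 is overlapped by the antisense gene Gm15743, which itself held at most 14 counts in a library, where Bdh1 held 2150 to 6290. The pair of noncoding genes inside introns of Slc16a1, Gm43581 and Gm43585, held at most 5 counts each.

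Promoter windows of GRCm38.p6 in RefSeq, from 250 bases before to 50 after a transcription start, were at hand for 2 of the 3 members, Bdh1 and Slc16a1, and Acat1 is named only. The windows were searched on both strands for the E-box CACGTG, the related CACGTT, the D-box TTATGNAA, the nuclear receptor site AGGTCA and the direct repeat of AGGTCA with 1 base between, a motif bound by PPARα. The Slc16a1 window was the one member window with a match, a CACGTG at chr3:104638464-104638469 that begins 200 bases before the start. CACGTG was held by 7.15% of all 32851 windows of that length, CACGTT by 4.68%, TTATGNAA by 3.38%, AGGTCA by 16.3% and the direct repeat by 0.0396%. The Slc16a1 window was rich in G and C, at 73.7% against a median of 52.7% over all windows, and held 42 CpG against a median of 7. Neither Bdh1 window, chr16:31422047-31422346 and chr16:31428503-31428802, held any of these letters, and 3 of the 7 annotated Bdh1 transcripts begin within 50 bases of the start of the latter and 1 within 50 bases of that of the former. A match is a description of the letters and not a site in use. The 250 bases before the start are shown for Slc16a1 (chr3:104638414-104638663, plus strand), because its level followed genotype and ZT most closely, and for Bdh1 (chr16:31428503-31428752, plus strand) for contrast, both 5′ to 3′ with the E-box in capitals.
Slc16a1: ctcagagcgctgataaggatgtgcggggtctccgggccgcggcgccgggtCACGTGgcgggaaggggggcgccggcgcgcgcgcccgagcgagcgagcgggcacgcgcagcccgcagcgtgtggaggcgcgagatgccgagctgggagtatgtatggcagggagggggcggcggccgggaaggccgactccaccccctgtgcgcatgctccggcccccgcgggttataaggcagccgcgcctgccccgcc
Bdh1: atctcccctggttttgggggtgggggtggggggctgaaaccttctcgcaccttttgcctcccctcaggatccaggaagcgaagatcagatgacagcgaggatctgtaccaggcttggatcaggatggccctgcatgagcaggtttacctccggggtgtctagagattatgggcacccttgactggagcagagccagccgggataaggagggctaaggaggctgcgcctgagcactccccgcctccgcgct

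Libraries held 17369927 to 22076113 counts (median 19106726), no pair of libraries was identical, and levels are given as CPM, the counts of a gene in 1000000 counts of its library, after scaling by edgeR's TMM factors. The labels were checked by clock genes, since counts over the whole of Bmal1 (listed as Arntl) do not single out the deleted exon. Npas2, a gene held down by clock repressors, had a median of 0.284 CPM in SPF WT and 0.333 in GF WT livers against 24.5 in SPF LKO and 26.1 in GF LKO livers. In 4 libraries clock genes stood apart from the other replicates of their group and ZT. Npas2 was 0.219 CPM in SPF LKO ZT14 replicate 2, against 25 and 24 in the other replicates, and 1.82 in SPF LKO ZT18 replicate 1, against 36.7 and 27.5. Nr1d1, a rhythmic clock repressor, was 85.2 CPM in SPF WT ZT14 replicate 3, against 8.56 and 3.1, and 9.36 in GF WT ZT6 replicate 3, against 50.5 and 49.2. All were kept, and values of the 3 members without them are given where a result rests on them.

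Markers of liver cell types were read in the same libraries. The summed level of 5 hepatocyte markers had medians of 110000 CPM in SPF WT, 61700 in SPF LKO, 141000 in GF WT and 63500 in GF LKO livers, with ranges of 84500 to 134000, 46800 to 130000, 117000 to 172000 and 55500 to 79900. This sum rested on Alb, which took a median of 8.71%, 4.05%, 9.39% and 3.27% of the counts in the same order. Alb fell in LKO livers (log2 fold change -0.98 in SPF and -1.70 in GF mice), whereas Apoa1 showed 0.00 in both, and 1 of the 5 markers fell in SPF LKO and 3 of the 5 in GF LKO livers. Of all genes, 11.5% fell and 11.6% rose in SPF LKO livers, and 15.2% fell and 15.6% rose in GF LKO livers. Of 6 Kupffer cell markers, 4 fell in SPF LKO and 2 in GF LKO livers, with summed medians of 249, 209, 222 and 187 CPM. Of 5 cholangiocyte markers, 1 rose in SPF LKO and 2 in GF LKO livers, with summed medians of 53.7, 70.7, 43.8 and 91 CPM. In SPF LKO livers 1 of 5 endothelial markers fell (Clec4g), 1 of 5 stellate cell markers rose (Reln) and 1 of 4 erythroid markers fell (Alas2), and in GF LKO livers 1 endothelial (Stab2) and 1 stellate cell marker (Lrat) rose and Alas2 fell. The sums of these lists and of the Kupffer cell and cholangiocyte lists overlapped across the 4 groups. Lymphocyte markers summed to at most 7.85 CPM, adipocyte markers to at most 9.25 and pancreas markers to at most 0.14. In bulk liver RNA, fewer cells of a type and less RNA per cell cannot be told apart, and the part of these shifts in the results for Bdh1, Acat1 and Slc16a1 was not tested.

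All 3 genes were measured well above the counting floor in all 72 libraries and passed the filter on low counts in every comparison. Levels between genes are compared per kilobase of exon length. On that scale, the mean level of Acat1 was 139 CPM per kb in SPF WT, 134 in SPF LKO, 158 in GF WT and 132 in GF LKO livers. Bdh1 came next, at 57.7, 45.4, 61.2 and 46 CPM per kb in the same groups. Slc16a1 was lowest, at 15.9, 24.5, 18.1 and 25.4 CPM per kb. The order of the 3 genes was thus shared by the 4 groups, with Slc16a1 and Bdh1 closest in LKO livers. Over all 72 libraries, Acat1 ranged from 416 to 692 CPM, Bdh1 from 122 to 354 and Slc16a1 from 35.7 to 143 (8120 to 13059, 2150 to 6290 and 611 to 2850 counts).

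**Figure D1:**
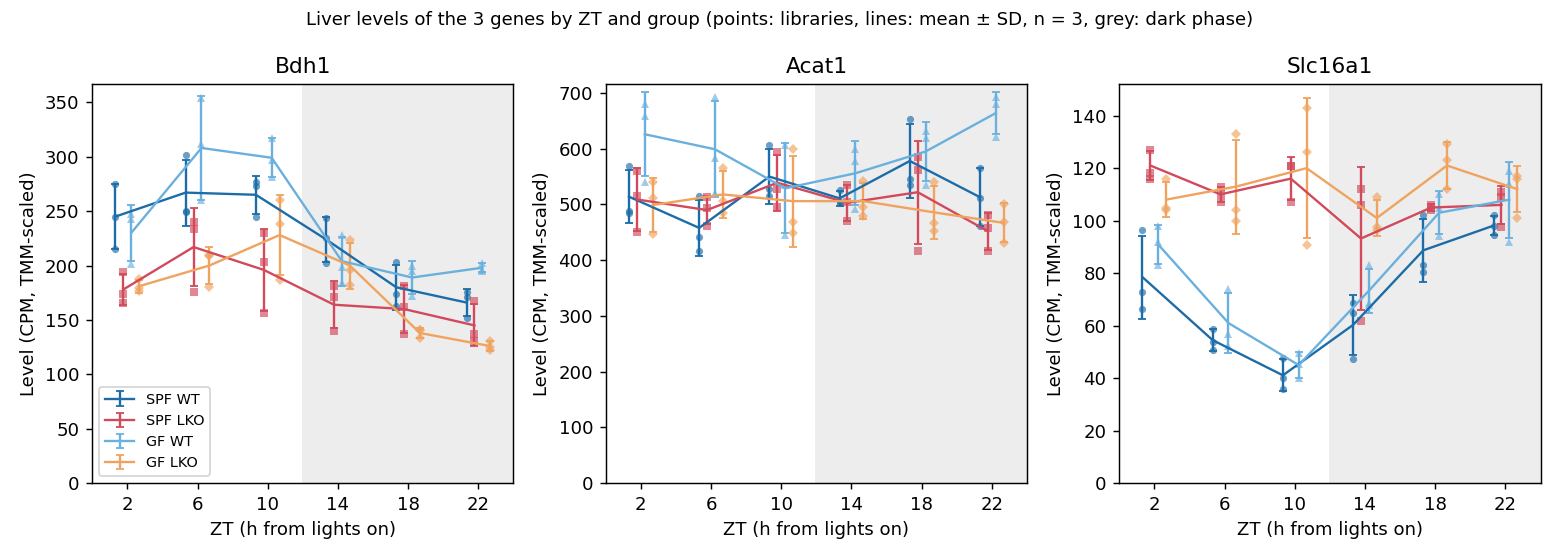
Levels (CPM, TMM-scaled) of Bdh1, Acat1 and Slc16a1 by ZT in hours from lights on, with a point for each library, lines through the mean ± SD of the 3 libraries of a group and ZT, and the dark phase in grey. Slc16a1 dips to means of 41.1 and 45 CPM at ZT10 in both WT groups and stays at means of 93.2 CPM or more at every ZT in both LKO groups.

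Slc16a1, the transporter gene, was higher in LKO livers, with its largest differences at ZT6 and ZT10 in the light phase. Its mean over all ZT was 70.2 ± 22.1 CPM (SD, n = 18) in SPF WT against 108 ± 13.7 in SPF LKO livers, and 80.3 ± 24.7 in GF WT against 112 ± 14.2 in GF LKO livers. By the quasi-likelihood test of edgeR, adjusted over all genes tested by the Benjamini-Hochberg method, which gave every adjusted p here, Slc16a1 rose 1.55-fold in SPF LKO (log2 fold change 0.63, SE 0.12, adjusted p = 7.99e-05) and 1.4-fold in GF LKO livers (0.49, SE 0.11, adjusted p = 0.000839). Over all genes, 23.1% were called in the SPF comparison and 30.8% in the GF comparison, and of the members 2 of 3 were called in SPF (Bdh1 and Slc16a1) and 3 of 3 in GF mice. The spread of Slc16a1 over the 18 libraries was wide in WT livers, at 31.5% of the mean in SPF WT and 30.8% in GF WT, and narrow in LKO livers, at 12.7% and 12.6%. Without the libraries of replicate 1, the GF difference was 0.38 and was no longer called (adjusted p = 0.0504).

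The largest difference of Slc16a1 was at ZT10, late in the light phase. The 3 SPF WT livers at ZT10 held 35.7, 39.9 and 47.6 CPM and the 3 SPF LKO livers 107, 121 and 121. In GF mice the WT livers held 40, 45.4 and 49.5 CPM and the LKO livers 90.8, 126 and 143. Within each housing condition every LKO liver at ZT10 was above every WT liver, where 28.4% and 30.3% of all genes did not overlap in SPF and GF mice. Slc16a1 rose 2.84-fold in SPF LKO (log2 fold change 1.50, SE 0.16, adjusted p = 2.15e-05) and 2.67-fold in GF LKO livers (1.42, SE 0.16, adjusted p = 2.58e-05). At this ZT 11.9% and 13.1% of all genes were called.

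At ZT6 the same separation held, where 29.4% and 27.7% of all genes did not overlap in SPF and GF mice. SPF WT livers held 50.7, 53.9 and 58.8 CPM against 107, 110 and 113 in SPF LKO livers, and GF WT livers 52.4, 56.8 and 73.8 against 100, 104 and 133 in GF LKO livers. Slc16a1 rose 2.02-fold in SPF LKO (log2 fold change 1.01, SE 0.14, adjusted p = 0.000725) and 1.84-fold in GF LKO livers (0.88, SE 0.14, adjusted p = 0.0013), against 7.26% and 11.7% of all genes called. The highest GF WT value at ZT6, 73.8 CPM, was that of replicate 3, whose clock genes stood apart. Without the 4 such libraries the GF difference at ZT6 was 1.04 (adjusted p = 0.000225).

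At ZT2 the groups were apart in SPF mice, at 66.5, 72.7 and 96.4 CPM in WT against 116, 118 and 127 in LKO livers, and Slc16a1 rose 1.54-fold (log2 fold change 0.62, SE 0.12, adjusted p = 0.00873). In GF mice at ZT2 they were 83.1, 91.7 and 97.8 against 104, 105 and 116 CPM, which did not overlap but did not pass the test (0.24, adjusted p = 0.39). The share of all genes called at ZT2 was 6.89% in SPF and 4.21% in GF mice, and 27.1% and 19% did not overlap.

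At the 3 ZT of the dark phase the differences of Slc16a1 were below those of ZT6 and ZT10. None was called by edgeR with all libraries and the filter on low counts. With no filter, Slc16a1 was called at 4 SPF time points in place of 3. At ZT14, SPF WT livers held 47.3, 64.9 and 68.8 CPM and SPF LKO livers 61.7, 106 and 112. The lowest of these LKO values, 61.7 CPM, was replicate 2, which had an Npas2 level like that of WT livers, and the lowest WT value was replicate 3, with its high Nr1d1. With all libraries the difference was 0.63 (adjusted p = 0.305), and without the 4 libraries it was 0.72 and was called (adjusted p = 0.00361). At SPF ZT14 edgeR called 0% of all genes, with 1484 genes at an unadjusted p under 0.05, 126 called by DESeq2 and 743 called by edgeR without the libraries that stood apart.

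GF livers at ZT14 held 68, 68.8 and 83 CPM of Slc16a1 in WT and 96.4, 97.4 and 109 in LKO mice. The difference was 0.46 (adjusted p = 0.206), with no overlap, as for 32.9% of all genes there. At ZT18 SPF WT livers held 80.6, 83.1 and 102 CPM against 104, 105 and 106 (0.24, adjusted p = 0.429), and GF WT livers 94.2, 105 and 110 against 112, 123 and 129 (0.26, adjusted p = 0.141). At ZT22 the groups overlapped, at 94.6, 98 and 102 against 97.6, 109 and 111 CPM in SPF (0.11, adjusted p = 0.722) and 91.9, 114 and 119 against 101, 116 and 117 CPM in GF mice (0.04, adjusted p = 0.951). All 12 of these point estimates over both housing conditions and 6 ZT were above 0, and 3 of 6 ZT were called in SPF and 2 of 6 in GF mice. Without the 4 libraries that stood apart, 4 ZT were called in SPF and 3 in GF mice. The share of all genes called was 0.015% at ZT18 and 3.31% at ZT22 in SPF mice, and 6.1%, 8.43% and 4.44% at ZT14, ZT18 and ZT22 in GF mice.

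**Figure D2:**
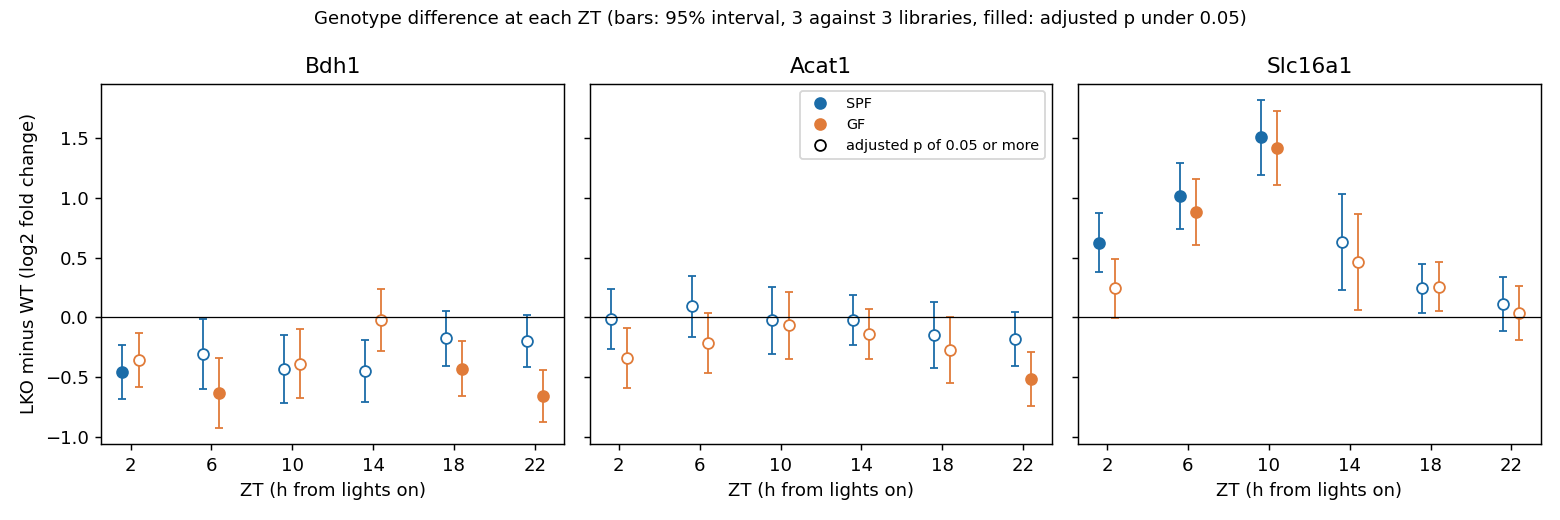
Difference between LKO and WT livers (log2 fold change) of Bdh1, Acat1 and Slc16a1 at each ZT in hours from lights on. SPF mice are in blue and GF mice in orange, with 3 against 3 libraries and filled points where the adjusted p was under 0.05. The 95% intervals are approximate and do not stand for the test. That of Bdh1 at SPF ZT6 excludes 0, with an unadjusted p of 0.0603 by the quasi-likelihood test. Slc16a1 climbs to 1.50 and 1.42 at ZT10 and falls back to 0.11 and 0.04 at ZT22, Bdh1 lies below 0 at every ZT, and Acat1 is called at GF ZT22 alone.

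Bdh1, the dehydrogenase gene, was lower in LKO livers in both housing conditions. Its mean was 224 ± 44.6 CPM (SD, n = 18) in SPF WT against 177 ± 33.2 in SPF LKO livers, and 238 ± 54 in GF WT against 179 ± 40.3 in GF LKO livers. Bdh1 fell to 0.79 of the WT level in SPF LKO (log2 fold change -0.34, SE 0.09, 95% interval -0.52 to -0.17, adjusted p = 0.00463) and to 0.754 in GF LKO livers (-0.41, SE 0.10, 95% interval -0.61 to -0.21, adjusted p = 0.0021). Without the libraries of replicate 2, the GF difference was -0.36 and was no longer called (adjusted p = 0.0521).

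By ZT, all 12 point estimates of Bdh1 were below 0, from -0.46 to -0.17 in SPF and from -0.66 to -0.02 in GF mice. The WT and LKO livers did not overlap at 4 of 6 ZT in SPF and 5 of 6 in GF mice, where 10.5% to 29.4% and 19% to 33% of all genes did not overlap and the shares of genes called were those given for Slc16a1. At SPF ZT2, WT livers held 215, 245 and 275 CPM and LKO livers 166, 174 and 194, and Bdh1 fell by 0.46 on the log2 scale (SE 0.12, adjusted p = 0.0311), the 1 SPF time point called. That call was lost without SPF WT ZT2 replicate 1 (adjusted p = 0.15) or 3 (0.0884), or without SPF LKO ZT2 replicate 1 (0.139) or 3 (0.107). Bdh1 was called at a second SPF time point by DESeq2, with no filter on low counts, or without SPF LKO ZT10 replicate 3.

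In GF mice Bdh1 was called at 3 of 6 ZT. At ZT22, WT livers held 195, 196 and 202 CPM against 122, 125 and 131 in LKO livers, and Bdh1 fell by 0.66 (SE 0.11, adjusted p = 0.00286), a call that held without any 1 of the 6 libraries. At ZT6, WT livers held 260, 312 and 354 CPM against 180, 209 and 210 in LKO livers, and Bdh1 fell by 0.63 (SE 0.15, adjusted p = 0.0145), or by 0.74 without the 4 libraries that stood apart, of which the WT liver at 260 CPM is 1 (adjusted p = 0.00578). At ZT18 the values were 172, 195 and 200 against 133, 141 and 141 CPM, and Bdh1 fell by 0.43 (SE 0.12, adjusted p = 0.0414). The ZT6 call was lost without replicate 1 of GF WT (adjusted p = 0.0583) or replicate 2 of GF LKO livers (0.0673), and the ZT18 call without any 1 of its 6 libraries (0.0554 to 0.124). Of the ZT not called, GF livers overlapped at ZT14, where WT held 184, 199 and 228 CPM and LKO 182, 196 and 223.

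Acat1, the thiolase gene, fell in LKO livers of GF mice and was not called in SPF mice, and the difference between the housing conditions did not pass its test. Its mean was 521 ± 56.1 CPM (SD, n = 18) in SPF WT and 502 ± 52.7 in SPF LKO livers, a log2 fold change of -0.05 (95% interval -0.15 to 0.06, adjusted p = 0.568). In GF mice it was 595 ± 72.5 CPM in WT and 497 ± 45.6 in LKO livers, and Acat1 fell to 0.837 of the WT level (-0.26, SE 0.05, adjusted p = 0.000198). GF WT had the highest mean, and the means of the other 3 groups differed from each other by less than the SD of any of them. In the interaction test over all 72 libraries, which sets the LKO against WT difference of GF mice against that of SPF mice, Acat1 had a difference of -0.22 (95% interval -0.36 to -0.07, unadjusted p = 0.00489, adjusted p = 0.32), Bdh1 of -0.07 (-0.35 to 0.20, adjusted p = 0.987) and Slc16a1 of -0.15 (-0.47 to 0.17, adjusted p = 0.976). Of the members, 0 of 3 were called in this test by edgeR or by DESeq2 and 1 had an unadjusted p under 0.05, against 0.438% of all genes called.

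At single ZT, Acat1 was called at GF ZT22 alone of the 12 comparisons. WT livers there held 621, 680 and 692 CPM and LKO livers 431, 469 and 500, with no overlap, as for 19.2% of all genes. Acat1 fell by 0.51 (SE 0.11, adjusted p = 0.0187). The call was lost without GF WT ZT22 replicate 2 (adjusted p = 0.0756) or 3 (0.0749), or without GF LKO ZT22 replicate 1 (0.0864) or 3 (0.0701). At the other GF time points the estimates ran from -0.34 at ZT2 to -0.06 at ZT10, and WT and LKO livers overlapped. In SPF mice they ran from -0.18 to 0.09, overlapped at all 6 ZT, and 0 of 6 were called by edgeR or DESeq2 or had an unadjusted p under 0.05.

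Rhythms were tested by fitting a 24-hour cosine to the counts of the 18 libraries of each group, where the amplitude is the distance from the middle to the peak of the fitted curve on the log2 scale. Over all genes, 15% were called rhythmic in SPF WT, 21.2% in SPF LKO, 26.7% in GF WT and 35% in GF LKO livers. The 3 members gave 3 patterns, namely a rhythm in all 4 groups (Bdh1), in WT groups only by call (Slc16a1) and in no group by call (Acat1).

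Slc16a1 oscillated in both WT groups. In SPF WT livers the amplitude was 0.61 with a peak at ZT21.3 (adjusted p = 1.54e-05), and in GF WT livers 0.61 with a peak at ZT21.2 (adjusted p = 3.61e-06). Group means ran from 41.1 ± 6.05 CPM at ZT10 to 98.1 ± 3.48 at ZT22 (SD, n = 3) in SPF WT, a ratio of 2.39, and from 45 ± 4.81 to 108 ± 14.5 in GF WT livers, a ratio of 2.41. In LKO livers the amplitude was 0.12 under SPF (adjusted p = 0.301) and 0.01 under GF conditions (adjusted p = 0.988), and their means over the 6 ZT ran from 93.2 to 121 and from 101 to 121 CPM. The SPF LKO mean of 93.2 CPM, at ZT14, includes replicate 2 at 61.7 CPM, which stood apart by its clock genes. Without the 4 such libraries the SPF LKO amplitude was 0.06 (adjusted p = 0.46). LKO livers stayed at all ZT near or above the level that WT livers reached at ZT22.

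The rhythm of Slc16a1 differed between genotypes by a test of the difference itself. That test covers amplitude and peak time together, so its p does not belong to the amplitude difference alone. Fitted together, the amplitude was 0.61 in SPF WT and 0.13 in SPF LKO livers, a difference of -0.48 (adjusted p = 0.000287), and 0.61 in GF WT and 0.01 in GF LKO livers, a difference of -0.61 (adjusted p = 3.53e-05). Of all genes, 1.02% were called in the SPF and 5.81% in the GF test, and of the members Slc16a1 alone was called in each. Between SPF WT and GF WT livers the amplitude of Slc16a1 differed by 0.00 (adjusted p = 0.973) and between SPF LKO and GF LKO livers by -0.11 (adjusted p = 0.614). Without the libraries of replicate 1, the SPF genotype difference was -0.43 and was no longer called (adjusted p = 0.098).

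Bdh1 oscillated in all 4 groups, with its peak in the light phase. The amplitude was 0.35 in SPF WT (peak ZT7.79, adjusted p = 0.000488), 0.25 in SPF LKO (ZT7.44, adjusted p = 0.0243), 0.39 in GF WT (ZT7.22, adjusted p = 5.26e-05) and 0.42 in GF LKO livers (ZT8.98, adjusted p = 2.46e-05). Mean levels fell from 267 ± 30.4 CPM at ZT6 to 166 ± 12.4 at ZT22 in SPF WT livers and from 228 ± 37.1 at ZT10 to 126 ± 4.78 at ZT22 in GF LKO livers (SD, n = 3). In SPF LKO livers the means were 217 ± 35.6 CPM at ZT6 and 145 ± 19.3 at ZT22, and the call there was lost without the libraries of replicate 2 (adjusted p = 0.139) or 3 (0.268) and in a test of any difference between the 6 ZT (0.16). No test of a difference in the Bdh1 rhythm was called, with adjusted p = 0.802 and 0.262 between genotypes in SPF and GF mice and 0.907 and 0.244 between housing conditions in WT and LKO mice. Of all genes, 0.0355% were called in that test in WT and 4.45% in LKO mice, and of the members 0 of 3 in either.

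Acat1 was nearly level over the day. Its amplitude was 0.11 in SPF WT (adjusted p = 0.337), 0.07 in SPF LKO (0.586), 0.14 in GF WT (0.103, unadjusted p = 0.0377) and 0.06 in GF LKO livers (0.477). Its highest and lowest ZT means differed by a ratio of 1.26 in SPF WT and GF WT, 1.19 in SPF LKO and 1.11 in GF LKO livers. In SPF WT livers the values were lowest at ZT6, at 417, 442 and 515 CPM, and highest at ZT18, at 535, 545 and 654.

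**Figure D3:**
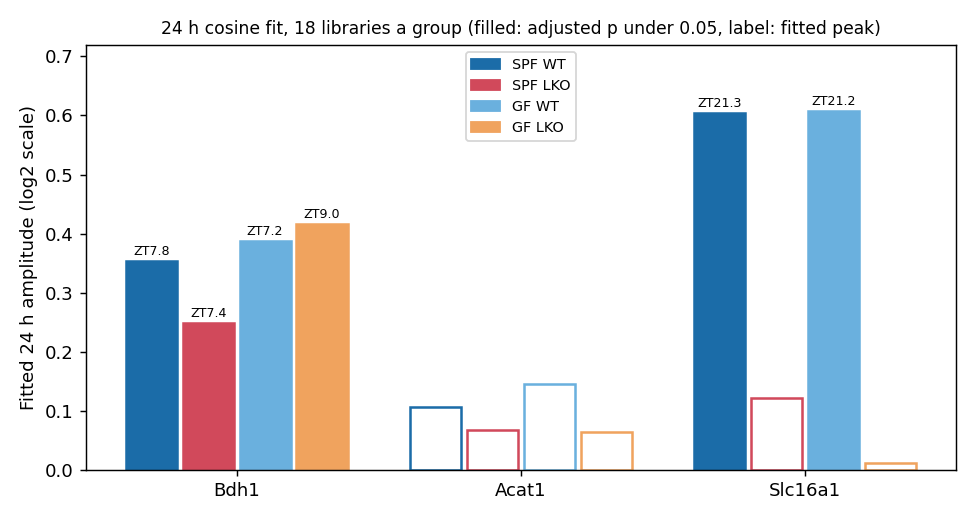
Fitted 24-hour amplitude (log2 scale) of Bdh1, Acat1 and Slc16a1 in each of the 4 groups of 18 libraries, with filled bars where the adjusted p was under 0.05 and the fitted peak time above them. The bars of Slc16a1 reach 0.61 in both WT groups and 0.12 and 0.01 in SPF LKO and GF LKO livers, and those of Bdh1 are filled in all 4 groups.

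Between housing conditions the members moved little. In WT mice, Acat1 rose 1.13-fold in GF over SPF livers (log2 fold change 0.18, SE 0.06, adjusted p = 0.0162), Bdh1 had a log2 fold change of 0.07 (95% interval -0.12 to 0.26, adjusted p = 0.597) and Slc16a1 of 0.18 (-0.11 to 0.47, adjusted p = 0.372). Thus 1 of 3 members was called, against 31.8% of all genes. The Acat1 call was lost without the libraries of replicate 2 (adjusted p = 0.0657) or 3 (0.224), and Slc16a1 was called when ZT entered the fit as a covariate (0.18, adjusted p = 0.014). All 5 hepatocyte markers rose in the same comparison, and their part in the Acat1 result was not tested. This comparison shares the SPF WT libraries with the SPF genotype comparison and the GF WT libraries with the GF genotype comparison.

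In LKO mice the 95% intervals of GF against SPF were -0.17 to 0.20 for Bdh1, -0.12 to 0.08 for Acat1 and -0.08 to 0.17 for Slc16a1, around log2 fold changes of 0.02, -0.02 and 0.05 (adjusted p = 0.913, 0.776 and 0.595). Of the members, 0 of 3 were called by edgeR or by DESeq2 or had an unadjusted p under 0.05, against 36.4% of all genes called. By ZT, edgeR called 0 of 18 tests over the 3 members in WT mice and 0 of 18 in LKO mice. In WT mice 4 of these tests had an unadjusted p under 0.05, 3 for Acat1 and 1 for Bdh1, and DESeq2 called Acat1 at 2 ZT. At ZT22, 19.6% of all genes did not overlap between SPF WT and GF WT livers. SPF WT livers held 461, 511 and 565 CPM of Acat1 there and GF WT livers 621, 680 and 692 (log2 fold change 0.39, adjusted p = 0.129), with no overlap. At ZT6 they held 417, 442 and 515 against 521, 583 and 692 CPM (0.40, adjusted p = 0.0927), and without the 4 libraries that stood apart, among them the liver at 692 CPM, the log2 fold change was 0.28 (adjusted p = 0.196). Over all genes, the shares called between housing conditions at ZT2, ZT6, ZT10, ZT14, ZT18 and ZT22 were 10.1%, 2.62%, 2.89%, 0.0751%, 0.983% and 0.516% in WT mice and 8.92%, 0.309%, 0.982%, 0.0601%, 3.71% and 2.25% in LKO mice.

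The members stand in a pathway of 51 genes listed by role, from the supply of acetyl-CoA by fatty acid oxidation to the receptors of ketone bodies. In SPF mice 40 of them passed the filter on low counts, and 17 fell and 3 rose in LKO livers, which is 42.5% and 7.5%, against 11.5% and 11.6% of all genes. In GF mice 39 passed, and 20 fell and 3 rose, 51.3% and 7.69% against 15.2% and 15.6%. The median log2 fold change of those tested was -0.20 in SPF and -0.25 in GF mice, against -0.005 and 0.008 over all genes. Without the 4 libraries that stood apart, 19 fell and 3 rose in SPF and 20 fell and 3 rose in GF mice. Alb and the Kupffer cell and cholangiocyte markers moved with genotype in the same libraries, and their part was not tested.

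In the ketogenesis list, which holds Bdh1 and Acat1, Bdh1 fell in LKO livers in both housing conditions and Acat1 in GF mice, as given above. Bdh2, a cytosolic short-chain dehydrogenase, had -0.02 and -0.04 between genotypes and rose by 0.40 in WT (adjusted p = 0.00048) and 0.38 in LKO mice (adjusted p = 7.54e-05) between GF and SPF livers.

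Among the 7 genes for use of ketone bodies and acetate, 4 passed the filter, and genotype moved 1, Oxct1 in SPF mice. Oxct1 encodes the CoA transferase by which tissues other than liver use acetoacetate, and was at 6.44 ± 1.08 CPM in SPF WT and 5.45 ± 1.03 in SPF LKO livers, and it fell by 0.23 there (adjusted p = 0.0417), with a log2 fold change of -0.17 in GF mice (adjusted p = 0.181). Acat2, the cytosolic thiolase, and Acss2, the cytosolic acetyl-CoA synthetase, were not called between genotypes either, with log2 fold changes of 0.23 and 0.33 in SPF and 0.04 and -0.15 in GF mice. Aacs, the cytosolic acetoacetyl-CoA synthetase, had -0.21 and -0.62 and was not called (adjusted p = 0.607 and 0.0945). Oxct2a, Oxct2b and Acss1 averaged at most 0.301 CPM in any group and were not tested in these comparisons. Between GF and SPF livers 3 of the 4 rose in both genotypes, namely Acss2 by 1.23 in WT (adjusted p = 2.05e-06) and 0.76 in LKO, Acat2 by 0.83 and 0.66, and Oxct1 by 0.40 and 0.47. Of all genes, 14.2% rose there in WT and 18.1% in LKO mice.

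In the transport list Slc16a1 was 1 of 3 genes that rose in LKO livers in both housing conditions, where 11.6% of all genes rose in SPF and 15.6% in GF mice. Slc16a6, a monocarboxylate transporter linked to the release of ketone bodies from liver, rose by 0.69 under SPF (adjusted p = 0.00124) and by 1.09 under GF conditions (adjusted p = 3.85e-08), from 5.56 and 4.55 CPM in the WT groups. Bsg, basigin, the partner that carries monocarboxylate transporter 1 to the membrane, rose by 0.18 under SPF (adjusted p = 0.00607) and 0.15 under GF conditions (adjusted p = 0.00469). Slc16a7, monocarboxylate transporter 2, moved the other way, from 95.6 ± 20.9 to 39.2 ± 23.1 CPM in SPF and from 89.4 ± 19 to 18.9 ± 2.85 in GF mice, log2 fold changes of -1.28 (adjusted p = 7.58e-07) and -2.24 (adjusted p = 3.78e-22). Its LKO against WT difference was itself larger in GF than in SPF mice (interaction -0.96, adjusted p = 0.00493), the 1 pathway gene called in that test, a call lost without the libraries of replicate 1, 2 or 3. Slc16a7 in SPF LKO livers ranged from 20.2 to 101 CPM. It also fell by 1.05 in GF LKO against SPF LKO livers (adjusted p = 8.37e-06). Among the SPF LKO livers are ZT14 replicate 2 and ZT18 replicate 1, with Npas2 at 0.219 and 1.82 CPM. Their part in these Slc16a7 values was not tested. Without the 4 libraries that stood apart, 1 gene of the transport list was still called lower in the interaction. Of the other listed genes, Slc16a3, Slc16a8, Slc5a8 and Slc5a12 averaged at most 0.389 CPM in any group and were not tested in these comparisons, and Emb, embigin, had a log2 fold change of -0.26 between genotypes in SPF mice (adjusted p = 0.483) at a mean of at most 0.662 CPM. Per kilobase, Slc16a1 and Slc16a7 were at 15.9 and 8.08 CPM in SPF WT livers and at 24.5 and 3.31 in SPF LKO livers.

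Of the genes for the supply of acetyl-CoA, 10 of 18 tested fell in SPF LKO and 13 of 18 in GF LKO livers, and 0 rose in either. Of all genes, 11.5% fell and 11.6% rose in SPF LKO livers, and 15.2% fell and 15.6% rose in GF LKO livers. Slc25a20, the carnitine-acylcarnitine carrier, fell by 0.47 in SPF and by 0.74 in GF mice (adjusted p = 2.19e-06 and 1.22e-11). Cpt1a, the rate-limiting step of fatty acid entry into mitochondria, fell by 0.49 and 0.53, and Cpt2, its partner on the inner membrane, by 0.24 and 0.37. The acyl-CoA dehydrogenases for long, medium and short chains fell as well, Acadl by 0.33 and 0.52, Acadm by 0.24 and 0.39 and Acads by 0.15 and 0.28. Of the later steps of β-oxidation, Hadh fell by 0.27 and 0.45, Acaa2 by 0.25 and 0.45 and Hadhb by 0.23 and 0.27, whereas Echs1, the enoyl-CoA hydratase, had 0.04 and 0.00 and was not called (adjusted p = 0.569 and 0.997). Acadvl, the dehydrogenase for very long chains, was not called in SPF mice (-0.09, adjusted p = 0.119). The list also holds Acacb, a carboxylase whose product malonyl-CoA inhibits Cpt1a, which had a log2 fold change of -0.51 in SPF (adjusted p = 0.227) and fell by 1.24 in GF LKO livers (adjusted p = 0.000217). Of 8 regulators tested, 3 fell in both, namely Ppara, the nuclear receptor that drives ketogenesis in fasting, by 0.67 and 0.80, Creb3l3, a liver transcription factor that acts with it, by 0.32 and 0.41, and Sirt3, a mitochondrial deacetylase, by 0.19 and 0.25.

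**Figure D4:**
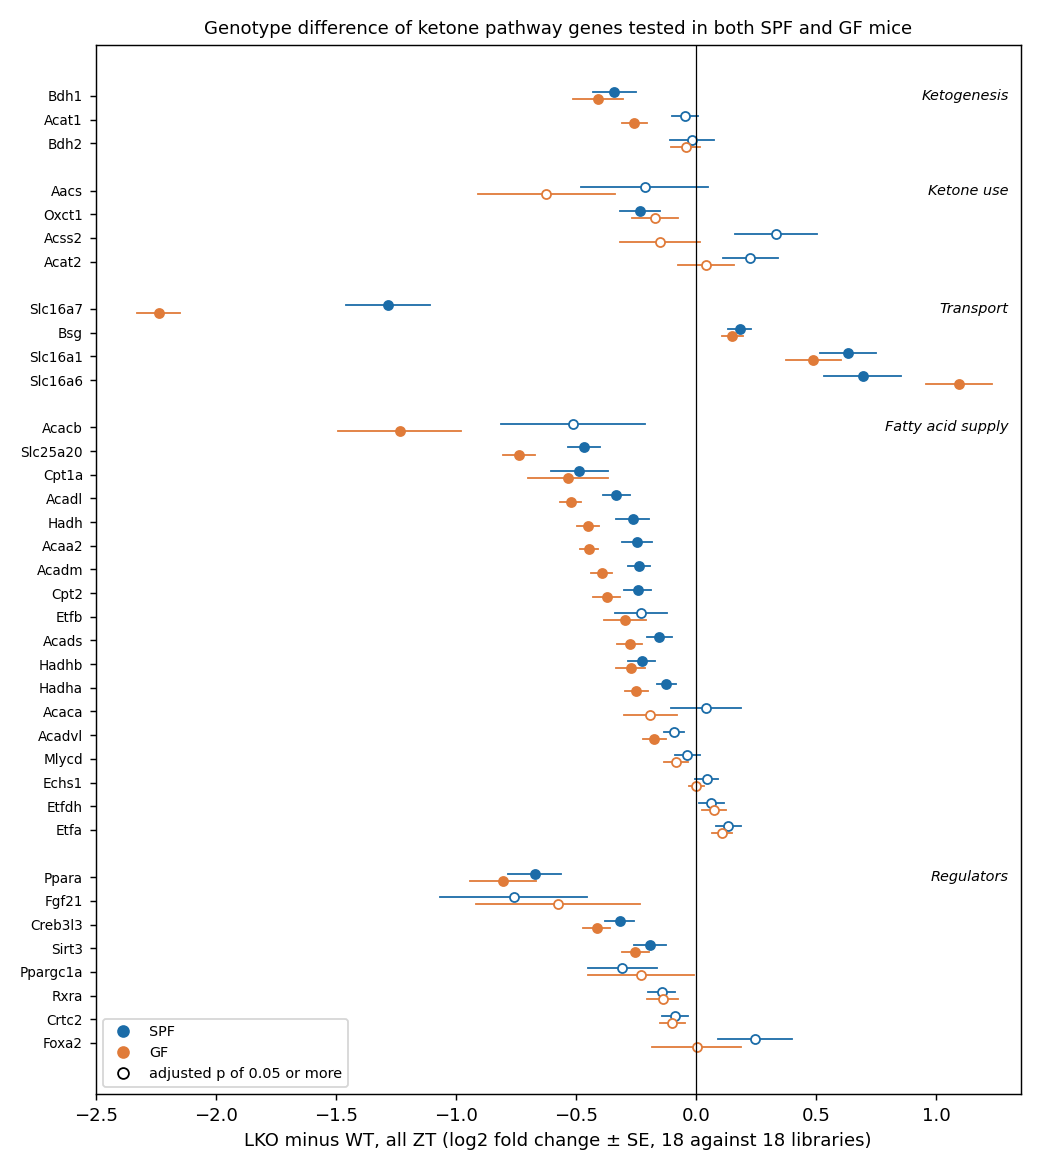
Difference between LKO and WT livers over all ZT (log2 fold change ± SE, 18 against 18 libraries) for 37 pathway genes tested in both SPF (blue) and GF (orange) mice, grouped by role, with filled points where the adjusted p was under 0.05. Most filled points of the fatty acid supply list lie between -0.15 and -0.74, while Slc16a1, Slc16a6 and Bsg lie to the right of 0 and Slc16a7 farthest to the left at -1.28 and -2.24.

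Between GF and SPF livers, the pathway genes were mostly higher in GF mice where called, with 2 lower and 14 higher of 40 tested in WT mice (5% and 35%, against 17.7% and 14.2% of all genes) and 3 lower and 10 higher in LKO mice (7.5% and 25%, against 18.4% and 18.1%). The 2 lower in WT mice became 1 under RLE scaling, without SPF WT ZT14 replicate 3, without GF WT ZT6 replicate 3 or without the libraries of replicate 1, and 0 without those of replicate 2 or 3, and the 14 higher became 8 without those of replicate 2. In LKO mice the 10 higher became 6 without those of replicate 2. In WT mice those higher included 8 of the 18 supply genes. Acat1 was among those higher in WT mice, and Bdh1 and Slc16a1 were not.

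The patterns of the members over the 24 means of group and ZT were compared with those of 10710 genes as a description, where the points share libraries and scaling. The gene most like Bdh1 was Cpt1a (Pearson's r = 0.904 over 24 means), followed by 1600014C10Rik (0.90) and Tmem127 (0.892). Most like Acat1 were Atg12, an autophagy gene (0.834), Isoc1 (0.828) and the mitochondrially encoded mt-Cytb (0.826). Most like Slc16a1 were Pxmp4, a peroxisomal membrane protein gene (0.969), Elovl3, a fatty acid elongase gene (0.967), and Lgalsl (0.961). Among the members themselves, r was -0.73 between Bdh1 and Slc16a1, 0.34 between Bdh1 and Acat1 and -0.11 between Acat1 and Slc16a1.

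Cpt1a resembled Bdh1 in its rhythm too, with a call in all 4 groups and a peak between ZT8.52 in SPF WT and ZT9.87 in GF LKO livers. Of the pathway genes tested, 8 of 42 were rhythmic in SPF WT, 9 of 40 in SPF LKO, 13 of 40 in GF WT and 14 of 40 in GF LKO livers, beside 15%, 21.2%, 26.7% and 35% of all genes. Bdh1 and Cpt1a were among those called in every group, with Acacb (amplitude 0.75 in SPF WT, 1.12 in SPF LKO, 0.82 in GF WT and 1.06 in GF LKO livers). Unlike Bdh1 and Cpt1a, Acacb peaked in the dark phase, at ZT18.4, ZT20.8, ZT18.1 and ZT23.5 in the same order. Its rhythm differed between genotypes in GF mice (adjusted p = 0.000215) and was not called different in SPF mice (0.498). Slc16a6 peaked in GF WT livers at ZT21.1 (amplitude 0.47, adjusted p = 0.0291), close to the peak of Slc16a1 at ZT21.2 in the same livers. It was not called rhythmic in SPF WT (amplitude 0.55, adjusted p = 0.0516), SPF LKO (0.09, adjusted p = 0.826) or GF LKO livers (0.26, adjusted p = 0.0602). No difference of its rhythm between genotypes was called in SPF (adjusted p = 0.268) or GF mice (0.0896).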

How the data were processed

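Liver RNA of 72 mice was sequenced as single-end stranded mRNA libraries. The deposited values are whole-number counts of reads per gene: the authors aligned reads to mm10 (GRCm38) with STAR 2.6.1b and counted exons of Ensembl release 97 with featureCounts 2.0.0, without strand, leaving out multi-mapped reads and reads shared by overlapping genes. Gene IDs were matched to symbols for 55394 of 55573 genes. The GENCODE vM21 annotation gave positions. Groups, ZT and replicate numbers came from the labels.

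Counts were tested with edgeR 4.0.16 (R 4.3.3) using TMM factors, its filter on low counts, the quasi-likelihood test and Benjamini-Hochberg adjustment over all genes kept at 0.05. Pairs of groups were fitted on 36 libraries with ZT pooled, each ZT on 12 libraries with 4 group means, the interaction on 72 libraries, and rhythms with the cosine and sine of a 24 h period. Intervals are 95%. The study's rhythm tool (empirical JTK_CYCLE) was not used here. DESeq2 1.42.0, RLE scaling, no filter, ZT as a covariate, a replicate block, limma 3.58.1 for rhythms and leaving out libraries served as alternatives. Tests were checked on simulated data. Likeness was Pearson's r of mean log2 CPM (prior count 2) among genes whose mean log2 CPM reached 1.

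The members, though named by a rule that uses no measured value, and the lists were chosen with earlier results of these data known. Values are given for the members, genes of the ketogenesis, use and transport lists, and the 12 supply and regulator genes with the largest GF change among those called in both genotype comparisons. Acacb, Echs1 and Acadvl are named outside that rule, and Acacb was named after its values were seen. Some listed genes are not reported here. Same-numbered replicates did not deviate together (18 pairs a comparison, median r between -0.02 and 0.02), so replicate numbers were not taken as pairs. The sources describe 1 library per mouse, so p-values rest on the spread between mice. Where ZT was pooled and in the interaction, ZT was not in the fit, so that spread also holds differences between ZT.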

Additional observations from a re-analysis of the deposited data

Results flagged for a closer look

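The 24-hour rhythm of Slc16a1 differed between genotypes by a test of the difference itself in both housing conditions. In SPF mice the amplitude on the log2 scale was 0.61 in WT and 0.13 in LKO livers, a difference of -0.48, and in GF mice it was 0.61 and 0.01, a difference of -0.61. At ZT10, where WT livers were lowest, every LKO liver was above every WT liver within each housing condition, and at ZT22 the genotypes overlapped in both. Of all genes, 28.4% in SPF and 30.3% in GF mice did not overlap between genotypes at ZT10.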

How the results depend on the processing

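Of 171 values of the members in the pooled comparisons and the interaction, 162 kept their direction and their side of the threshold, as did 102 of 105 rhythm tests and 107 of 108 tests of rhythm differences. Of 492 counts of ZT called, 478 stayed within 1.5 times the reported count. Most of these left out 1 library, which retests 1 ZT and keeps the calls of the others, so this agreement was partly fixed in advance. With ZT pooled, the calls of Slc16a1 and Bdh1 between genotypes in SPF mice, and of Acat1 in GF mice, held under every alternative run, namely DESeq2, RLE scaling, no filter, ZT as a covariate, the replicate block and leaving out libraries. All 48 member results without the 4 libraries that stood apart by their clock genes kept their side of the threshold or stayed within 1.5 times the count. Within that margin, Slc16a1 at SPF ZT14 was gained (0.72, adjusted p = 0.00361), and the GF time points called for Slc16a1 went from 2 to 3.

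With ZT as a covariate Slc16a1 was called between GF WT and SPF WT livers (0.178), as with the replicate block (0.18, adjusted p = 0.0146), and the difference of Bdh1 between GF LKO and SPF LKO livers became -0.003. DESeq2, no filter and the replicate block each called Bdh1 at 2 SPF time points in place of 1, and DESeq2 called Acat1 at 2 ZT in place of 0 between GF WT and SPF WT livers. With no filter, Slc16a1 was called at 4 SPF time points in place of 3, and Bdh1 at 4 GF time points in place of 3. The replicate block also lost Bdh1 at GF ZT18 (adjusted p = 0.066) and changed no other reported call of Bdh1, Acat1 or Slc16a1. For the other pathway genes, only the numbers lower and higher were compared under it, and their single calls were not checked. In the test of any difference between ZT, Bdh1 in SPF LKO livers had an adjusted p of 0.16. The causes were not tested.

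With libraries left out, the genotype effect in GF mice ran from 0.375 to 0.574 for Slc16a1 (lost without replicate 1, adjusted p = 0.0504) and from -0.443 to -0.361 for Bdh1 (lost without replicate 2, adjusted p = 0.0521). Between housing conditions, Acat1 in WT mice ran from 0.127 to 0.226 (lost without replicate 2 or 3, adjusted p = 0.0657 and 0.224), and in LKO mice Bdh1 ran from -0.005 to 0.034 and Acat1 from -0.063 to 0.022, changing sign without replicate 1. The number of ZT called ran from 0 to 2 for Bdh1 in SPF and from 0 to 1 for Acat1 in GF mice, and from 0 to 1 for Slc16a1 between GF WT and SPF WT livers, where SPF WT ZT2 replicate 2 left out gave the 1. The adjusted p of the Bdh1 rhythm in SPF LKO livers ran from 0.0317 to 0.268 (lost without replicate 2 or 3) and that of the Slc16a1 rhythm difference in SPF mice from 0.000752 to 0.098 (lost without replicate 1). Of 102 values of single-ZT calls, 17 fell short of the threshold. Over all genes, calls ran from 1586 to 3514 for genotype in SPF mice (3043 with all libraries), from 1674 to 4083 and from 2431 to 4896 for microbiota in WT and LKO mice (4069 and 4741), and from 13 to 56 for the interaction (59). Pathway genes between GF WT and SPF WT livers ran from 8 to 14 higher and from 0 to 1 lower, between GF LKO and SPF LKO livers from 6 to 10 higher, and from 0 to 1 lower in the interaction. With 3 libraries a group, single-ZT comparisons hold less information than the pooled ones, and a difference that was not called there is not shown to be absent.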
